A study of Mus musculus with 15 samples.

Results

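The genes described here are 10 transcriptional targets and negative regulators of Fgf signalling through the MAP kinase ERK, chosen by their symbols: Spry1, Spry2, Spry4, Spred1, Spred2, Spred3, Il17rd, Dusp6, Etv4 and Etv5. All 10 were found among the 23244 entries of the expression table, and all 10 were among the 13845 entries that passed the filter on low values. Their levels were measured by RNA-Seq in 15 samples of mouse optic tissue, 3 in each of 5 groups, grown with SFEBq, a culture in which embryonic stem cells aggregate and form optic epithelium. The stem cells of every group were the EB5 Rx::GFP+/- line, a single line that carries a GFP reporter for Rx, and they had been kept in 2i medium, which holds a MEK inhibitor and a GSK3 inhibitor, before differentiation. Day 10 Rx::GFP+ tissue was collected as excised, with no added stimulation. The Day 12 +Fgf and Day 15 +Fgf tissues were explanted at Day 10 into medium with 5 ng/mL human recombinant bFgf and 10% fetal bovine serum. The Day 12 +Wnt and Day 15 +Wnt tissues were explanted at Day 10 into medium with the GSK3 inhibitor CHIR99201, at 3 µM for the first 24 h and at 1 µM afterwards. No unstimulated sample of Day 12 or Day 15 was analysed here, so stimulation and culture time cannot be told apart in any comparison with Day 10, and the effects of bFgf and of serum cannot be told apart in the +Fgf samples.

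An Fgf ligand binds its receptor tyrosine kinase, which activates Ras and then the kinase cascade of RAF, MEK and ERK. ERK signalling induces a set of genes whose products damp the same pathway, and the RNA of these genes is widely used as a readout of Fgf activity. In the optic vesicle, Fgf favours neural retina, while Wnt signalling favours retinal pigmented epithelium. Within the group, the Sprouty proteins (Spry1, Spry2, Spry4) and the related Spred proteins act on Ras and RAF activation, Il17rd (Sef) is a transmembrane inhibitor of Fgf signalling, Dusp6 is a phosphatase that inactivates ERK, and Etv4 and Etv5 are ETS transcription factors that carry the Fgf response to other genes.

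The libraries held between 12556998 and 16175450 reads assigned to genes, and 1 read was worth between 0.0620 and 0.0764 in CPM, the library-size-scaled unit of every level given here. Replicates correlated with each other at r between 0.988 and 0.995 across genes, against 0.867 to 0.969 between groups. The summed level of 7 neural retina markers lay between 2004 and 2379 CPM in the Day 10 and both +Fgf groups and between 593 and 881 CPM in both +Wnt groups. The summed level of 9 pigmented epithelium markers lay between 6232 and 8218 CPM in Day 15 +Wnt and was at most 1805 CPM in every other library, although Rpe65, a defining gene of mature pigmented epithelium, was at 0 in all 3 Day 15 +Wnt libraries. Markers of tissue types thus differed between the groups compared below, and in these bulk samples fewer cells that express a gene and less of its RNA per cell cannot be told apart.

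RefSeq promoter windows on GRCm38.p6 were matched for 8 of the 10 genes, in 9 windows of the 250 bases before a transcription start, and none was matched for Etv4 and Spry4. Capicua (CIC) is a repressor that binds octamers of the TGAATGAA type and is released from its targets by ERK signalling. The octamers TGAATGAA, TGAATGGA, TCAATGAA and TCAATGGA were searched on both strands, and at least 1 of them lay in 3 of the 9 windows, against 3.19% of all 32851 windows. The 3 windows that held an octamer are shown 5′ to 3′ along the strand of the gene in the reference strain, with the octamer in capitals. The levels of these genes, Dusp6, Spry2 and Spred3, moved in opposite directions under the 2 stimulations by Day 12. So did those of Spred1, Spred2 and Etv5, whose windows held no octamer.
Dusp6, chr10:99262981-99263230, plus strand: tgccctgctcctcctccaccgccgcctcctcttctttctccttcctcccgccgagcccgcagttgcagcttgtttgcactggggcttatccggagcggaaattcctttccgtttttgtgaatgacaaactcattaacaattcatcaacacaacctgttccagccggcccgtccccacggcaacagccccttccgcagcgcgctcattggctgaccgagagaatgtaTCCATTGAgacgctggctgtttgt
Spry2, chr14:105896820-105897069, minus strand: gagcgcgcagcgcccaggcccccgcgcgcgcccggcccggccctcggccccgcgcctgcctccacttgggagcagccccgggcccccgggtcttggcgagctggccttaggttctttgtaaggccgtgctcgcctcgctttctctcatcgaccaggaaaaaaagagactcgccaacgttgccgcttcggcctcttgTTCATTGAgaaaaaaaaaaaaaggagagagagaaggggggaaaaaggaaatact
Spred3, chr7:29168648-29168897, minus strand: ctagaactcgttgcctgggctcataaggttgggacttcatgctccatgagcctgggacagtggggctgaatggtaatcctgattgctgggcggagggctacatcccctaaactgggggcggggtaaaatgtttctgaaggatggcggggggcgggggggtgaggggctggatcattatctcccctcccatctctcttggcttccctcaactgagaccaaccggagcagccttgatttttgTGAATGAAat
The octamer lay 24 to 17 bases before the start of Dusp6, 54 to 47 bases before that of Spry2 and 10 to 3 bases before that of Spred3, whose window lies inside the gene, before an internal start. In Dusp6 and Spry2 the capitals read as the reverse complements of TCAATGGA and TCAATGAA. The ETS hexamer CCGGAA lay in 0 of the 9 windows against 12.03% of all windows, the AP-1 site TGANTCA in 0 against 6.749%, and the CRE octamer TGACGTCA in 0 against 1.546%. These matches describe the letters of the reference only, none of the 4 patterns contains another, and no binding was measured.

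Levels between genes were compared per kilobase of exon, taken from the RefSeq transcript that the expression table lists for each gene on mm10. In Day 10 tissue, Dusp6 had the highest level per length, at 20.0 ± 0.200 CPM per kb (SD, n = 3), and Spry4 the lowest, at 0.518 ± 0.0765 CPM per kb. Dusp6 stayed highest in Day 12 +Fgf at 55.3 ± 3.16 CPM per kb, Etv5 was highest in Day 15 +Fgf at 36.7 ± 0.921 CPM per kb, and Spry1 was highest in Day 12 +Wnt and Day 15 +Wnt, at 12.3 ± 0.637 and 22.2 ± 1.35 CPM per kb. Spry4 was the lowest of the 10 in all 5 groups. Between groups, the highest group mean was 9.53 times the lowest for Dusp6, 7.94 times for Etv5 and 7.41 times for Spry4, but only 2.33 times for Spry1 and 2.09 times for Spred2. Summed over the 10 genes, the level was 360 ± 24.3 CPM in Day 10 tissue, 816 ± 49.9 in Day 12 +Fgf, 245 ± 10.3 in Day 12 +Wnt, 634 ± 5.76 in Day 15 +Fgf and 289 ± 15.2 in Day 15 +Wnt (SD, n = 3). The 5 groups did not overlap in this sum.

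**Figure D1:**
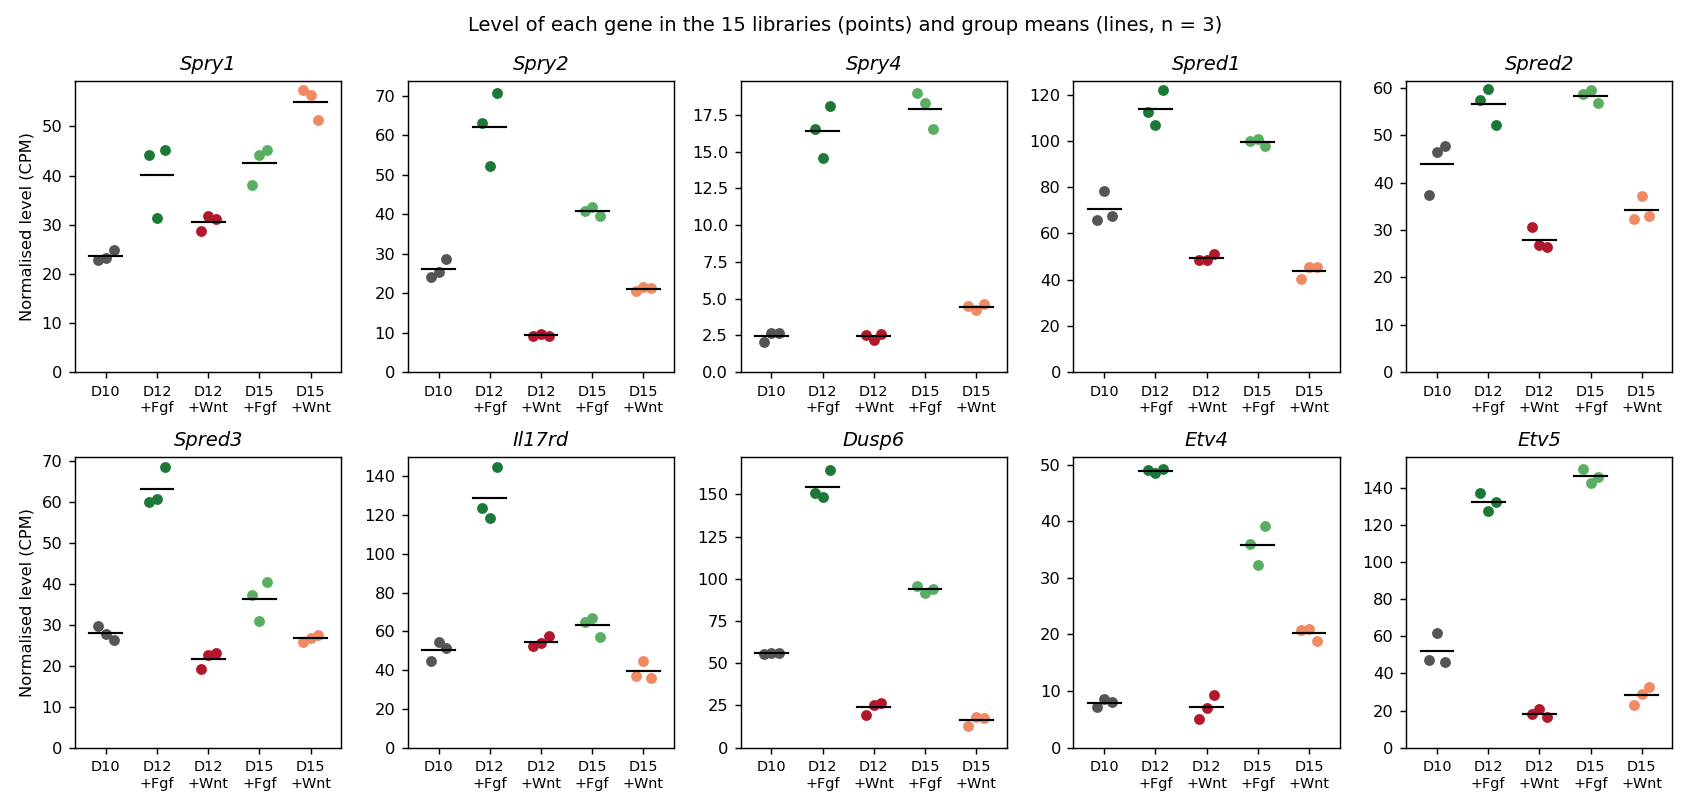
Normalised level in CPM (vertical axes, linear and starting at 0) of each of the 10 genes in the 15 libraries (points), with the mean of each group of 3 as a line. D10 is Day 10 Rx::GFP+ tissue, and D12 and D15 are the stimulated tissues. The Day 12 +Fgf points stand above the Day 10 points in all 10 panels, while Spry1 is highest in Day 15 +Wnt.

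The first comparison asked how the feedback genes stood 2 days after the explants were stimulated. In Day 12 +Fgf, all 10 were higher than in Day 10 tissue with replicates that did not overlap, and all 10 passed the limma test at an adjusted p below 0.05 (9, without Spred2, when the RNA integrity number of each sample was in the model), where 27.9% of all genes tested were called higher and 27.8% lower, and where the replicates of 30.1% did not overlap in this direction. Their median log2 fold change was 1.29, against -0.00 over all genes tested, and it ranged from 0.37 for Spred2 to 2.60 for Spry4. In Day 12 +Wnt, 6 of the 10 were called lower than in Day 10 tissue, 1 was called higher and 3 were not called, where 29.6% of all genes were called lower and 30.6% higher. The median over the 10 genes was -0.44 in that comparison, against 0.01 over all genes. Both comparisons use the same Day 10 libraries. In the direct comparison of Day 12 +Fgf with Day 12 +Wnt, all 10 were called higher in +Fgf, where 26.3% of all genes were called higher and 25.2% lower, with a median log2 difference of 2.08, and the replicates of 9 of the 10 did not overlap, where 30.9% of all genes were so separated in this direction.

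**Figure D2:**
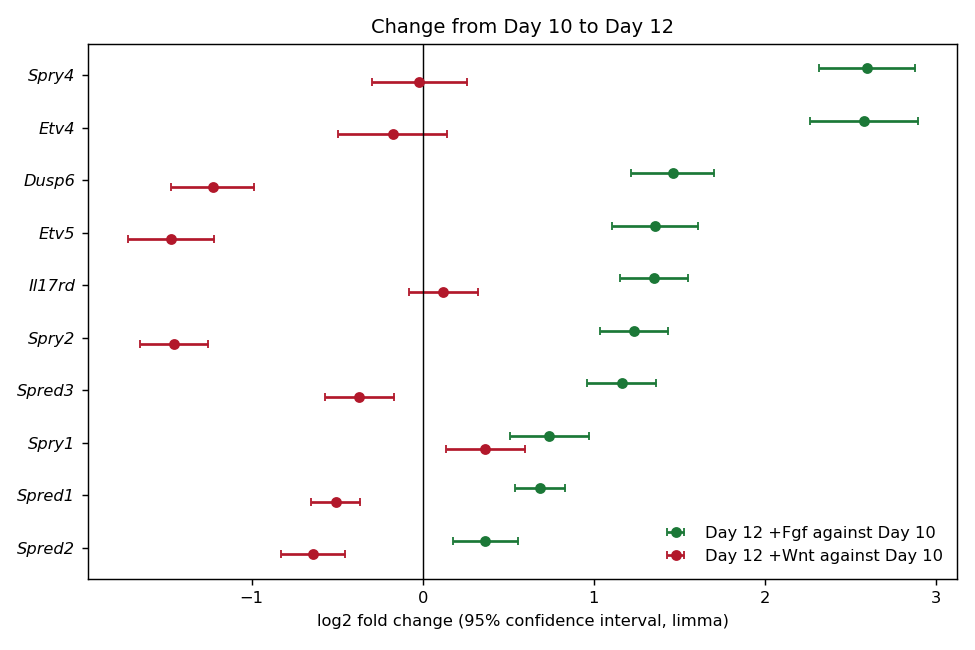
Log2 fold change (horizontal axis) of each gene from Day 10 to Day 12 under +Fgf (green) and +Wnt (red), as limma estimates with 95% confidence intervals, ordered by the +Fgf change. All 10 +Fgf intervals lie above 0, and the +Wnt intervals of Spry4, Etv4 and Il17rd span 0.

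Among the Sprouty genes, Spry2 moved in opposite directions under the 2 stimulations. Its levels in replicates 1 to 3 were 24.0, 25.3 and 28.7 CPM in Day 10 tissue, 63.1, 52.1 and 70.6 in Day 12 +Fgf and 9.18, 9.67 and 9.0 in Day 12 +Wnt. At Day 15 they were 40.9, 41.9 and 39.4 CPM in +Fgf and 20.4, 21.6 and 21.3 CPM in +Wnt. No 2 groups overlapped, and the order from high to low was Day 12 +Fgf, Day 15 +Fgf, Day 10, Day 15 +Wnt and Day 12 +Wnt. Spry2 rose by 1.23 on the log2 scale (SE 0.09, limma adjusted p = 2.2e-08) from Day 10 to Day 12 +Fgf and fell by 1.45 on the log2 scale (SE 0.09, adjusted p = 2.8e-09) to Day 12 +Wnt. In +Wnt tissue it then rose by 1.16 (SE 0.09, adjusted p = 1.4e-08) to Day 15, where it stood slightly below Day 10 (log2 fold change -0.29, SE 0.09, adjusted p = 0.0086), a call that was lost without Day 10 replicate 3 (-0.22, adjusted p = 0.055).

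Spry4 responded to +Fgf with the largest log2 fold change of the 10 genes, from a low start. Its levels were 2.04, 2.67 and 2.67 CPM in Day 10 tissue, 16.5, 14.6 and 18.1 in Day 12 +Fgf and 19.0, 18.3 and 16.5 in Day 15 +Fgf. They were 2.52, 2.16 and 2.58 CPM in Day 12 +Wnt and 4.47, 4.25 and 4.63 in Day 15 +Wnt. The +Fgf libraries stood far above all others, the Day 10 and Day 12 +Wnt libraries overlapped, and the Day 15 +Wnt libraries lay between. The rise to Day 12 +Fgf was 2.60 on the log2 scale (SE 0.13, adjusted p = 2.8e-10), whereas the difference between Day 12 +Wnt and Day 10 was -0.02 with a 95% confidence interval of -0.30 to 0.26. Day 15 +Wnt was above Day 10 by 0.79 (SE 0.13, adjusted p = 3.5e-05), although this difference was -0.08 (adjusted p = 0.60) when the libraries were quantile normalised instead. Its rise from Day 12 to Day 15 in +Wnt was 0.81 (SE 0.13, adjusted p = 4.1e-05), and 0.13 (adjusted p = 0.39) after quantile normalisation. Between 30 and 72 reads lay behind each Spry4 value in the Day 10 and +Wnt libraries, so these levels carry the widest counting error of the group.

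Spry1 had its highest level in Day 15 +Wnt, whereas the other 9 genes were highest in a +Fgf group. Its levels were 22.9, 23.1 and 24.8 CPM in Day 10 tissue, 44.1, 31.3 and 45.2 in Day 12 +Fgf and 28.7, 31.7 and 31.2 in Day 12 +Wnt. At Day 15 they were 38.0, 44.2 and 45.2 CPM in +Fgf and 57.5, 56.3 and 51.2 CPM in +Wnt, the highest of any group. Both stimulations were above Day 10 at both times, Day 12 +Fgf replicate 2 fell among the Day 12 +Wnt values, and the Day 15 +Wnt libraries stood above all others. Spry1 was the only one of the 10 called higher in Day 12 +Wnt than in Day 10 (log2 fold change 0.37, SE 0.11, adjusted p = 0.0087) and the only one called lower in Day 15 +Fgf than in Day 15 +Wnt (-0.37, SE 0.11, adjusted p = 0.0064). The Day 15 call was lost with the RNA integrity number in the limma model (-0.42, adjusted p = 0.11). At Day 12, Spry1 was higher in +Fgf than in +Wnt by 0.38 (SE 0.11, adjusted p = 0.0091), which missed the threshold without Day 12 +Fgf replicate 1 (0.30, adjusted p = 0.055) or replicate 3 (0.28, adjusted p = 0.056). An exon of Gm42922, annotated on the opposite strand, overlaps Spry1, and since the strand setting of the counting is not given in the sources used here, reads of the pair cannot be told apart. Spry3, the remaining mouse Sprouty gene, was at 0 in all 15 libraries and was not tested.

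The makeup of the Sprouty reads within a library differed between the stimulations with no overlap. Spry1 gave 45.4% ± 1.33 (SD, n = 3) of the reads of Spry1, Spry2 and Spry4 in Day 10 tissue, 33.8% ± 1.83 in Day 12 +Fgf and 42.0% ± 2.93 in Day 15 +Fgf. It gave 72.3% ± 1.04 in Day 12 +Wnt and 68.2% ± 1.71 in Day 15 +Wnt. No +Wnt library was below 66.4%, and no other library was above 46.8%. Spry2 gave between 21.0% and 27.6% of these reads in the +Wnt libraries and between 39.0% and 53.2% elsewhere. Spry4 gave between 13.4% and 19.4% in the +Fgf libraries and between 4.18% and 6.22% elsewhere. These are shares of reads, not corrected for transcript length.

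**Figure D3:**
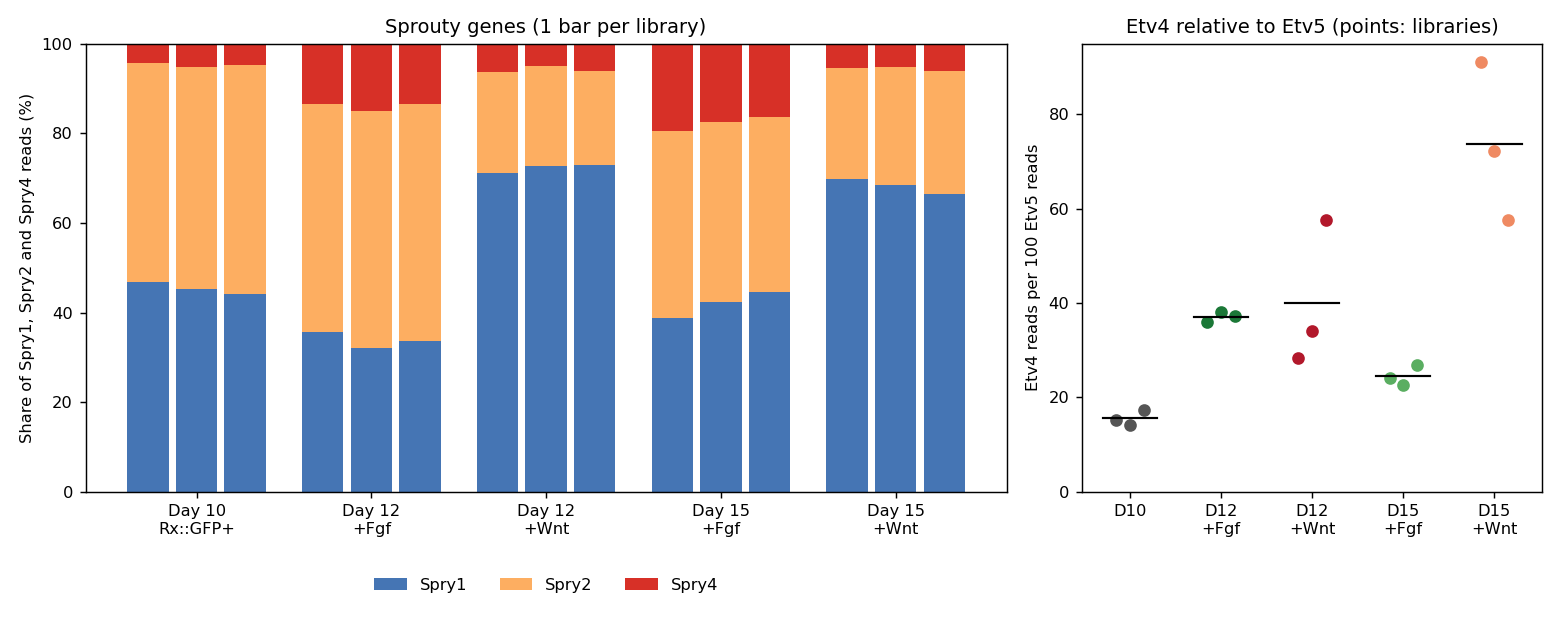
Left, the share in percent of Spry1, Spry2 and Spry4 in their summed reads, with 1 bar for each library. Right, Etv4 reads per 100 Etv5 reads in each library (points) with group means (lines, n = 3). Spry1 takes at least 66.4% of the Sprouty reads in every +Wnt library, and the Etv4 to Etv5 ratio is highest in Day 15 +Wnt, where it ranges from 57.6 to 91.1.

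The 3 Spred genes, which encode inhibitors of Ras activation, all rose in Day 12 +Fgf and all fell in Day 12 +Wnt. Spred1 was at 66.0, 78.2 and 67.5 CPM in Day 10 tissue, at 112, 107 and 122 in Day 12 +Fgf and at 48.4, 48.6 and 51.1 in Day 12 +Wnt. At Day 15 it was at 100.1, 100.8 and 97.9 CPM in +Fgf and at 40.1, 45.6 and 45.4 CPM in +Wnt, so that no 2 groups overlapped. Spred1 rose by 0.69 (SE 0.07, adjusted p = 4.2e-07) in Day 12 +Fgf and fell by 0.51 on the log2 scale (SE 0.07, adjusted p = 8.5e-06) in Day 12 +Wnt. From Day 12 to Day 15 it was called lower in both stimulations, by small steps of -0.19 in +Fgf (SE 0.07, adjusted p = 0.026) and -0.18 in +Wnt (SE 0.07, adjusted p = 0.030). The first of these missed the threshold without replicate 1 or 3 of Day 12 +Fgf or replicate 1 or 3 of Day 15 +Fgf (adjusted p from 0.051 to 0.13), and the second without Day 12 +Wnt replicate 3 (-0.15, adjusted p = 0.099) or Day 15 +Wnt replicate 1 (-0.12, adjusted p = 0.16). The second was also lost in edgeR on the recovered reads (-0.12, adjusted p = 0.14) and in limma with median-of-ratios scaling (-0.14, adjusted p = 0.093). Quantile normalisation ended both calls in limma, at -0.14 in +Fgf (adjusted p = 0.074) and -0.15 in +Wnt (adjusted p = 0.053). The +Fgf call was also lost with the RNA integrity number in the limma model (-0.12, adjusted p = 0.57).

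Spred2 changed least in +Fgf, where it rose by 0.37 (SE 0.09, adjusted p = 0.0024, and 0.27 with adjusted p = 0.11 with the RNA integrity number in the model) from 37.5, 46.5 and 47.8 CPM at Day 10 to 57.5, 59.8 and 52.2 CPM at Day 12, and was at 58.6, 59.5 and 56.8 CPM at Day 15. In +Wnt it fell by 0.64 on the log2 scale (SE 0.09, adjusted p = 1.2e-05) to 30.7, 26.8 and 26.3 CPM at Day 12 and was at 32.4, 37.2 and 33.0 CPM at Day 15, an increase of 0.29 (SE 0.09, adjusted p = 0.0088) that missed the threshold without Day 15 +Wnt replicate 2 (0.23, adjusted p = 0.051). The +Fgf libraries stood above those of Day 10 and the +Wnt libraries below them at both times. Spred3 rose and fell again in +Fgf, at 29.8, 27.8 and 26.3 CPM in Day 10 tissue, 60.0, 60.7 and 68.6 in Day 12 +Fgf and 37.2, 30.9 and 40.6 in Day 15 +Fgf. It rose by 1.16 (SE 0.10, adjusted p = 5.4e-08) and then fell by 0.80 on the log2 scale (SE 0.10, adjusted p = 2.4e-06). In +Wnt, Spred3 was at 19.2, 22.6 and 23.2 CPM at Day 12 and at 25.8, 26.7 and 27.6 CPM at Day 15, where it overlapped Day 10 (log2 fold change -0.06, 95% confidence interval -0.27 to 0.14). The rise between these days in +Wnt, 0.30 (SE 0.10, adjusted p = 0.0098), missed the threshold without Day 12 +Wnt replicate 1 (0.22, adjusted p = 0.062).

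Il17rd and Dusp6, the transmembrane inhibitor and the ERK phosphatase, both rose in Day 12 +Fgf, 2.55-fold and 2.76-fold, and Dusp6 also fell in Day 12 +Wnt, where Il17rd was not called. Il17rd was at 44.8, 54.6 and 51.5 CPM in Day 10 tissue, at 124, 118 and 145 in Day 12 +Fgf and at 52.5, 53.9 and 57.4 in Day 12 +Wnt. At Day 15 it was at 64.9, 67.1 and 57.3 CPM in +Fgf and at 37.1, 44.7 and 36.1 CPM in +Wnt. The Day 12 +Fgf libraries stood above all others, and Day 10, Day 12 +Wnt and Day 15 +Fgf lay close together. Il17rd rose by 1.35 (SE 0.09, adjusted p = 8.3e-09) to Day 12 +Fgf and fell by 1.02 on the log2 scale (SE 0.09, adjusted p = 1.3e-07) to Day 15 +Fgf. Its difference between Day 12 +Wnt and Day 10 was 0.12, with a 95% confidence interval of -0.08 to 0.32.

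Dusp6 was at 55.2, 56.3 and 55.9 CPM in Day 10 tissue, at 151, 148 and 165 in Day 12 +Fgf and at 19.5, 25.3 and 26.7 in Day 12 +Wnt. At Day 15 it was at 95.7, 91.3 and 94.1 CPM in +Fgf and at 12.8, 18.3 and 17.5 CPM in +Wnt. No 2 groups overlapped, and Dusp6 had the widest range of the 10 genes. It rose by 1.46 (SE 0.12, adjusted p = 3.1e-08) to Day 12 +Fgf and fell by 1.23 on the log2 scale (SE 0.12, adjusted p = 1.6e-07) to Day 12 +Wnt. It then fell in both stimulations, by 0.72 on the log2 scale in +Fgf (SE 0.12, adjusted p = 5.2e-05) and by 0.55 in +Wnt (SE 0.12, adjusted p = 0.00043), and in Day 15 +Fgf it was 5.76 times as high as in Day 15 +Wnt. With the RNA integrity number in the limma model, the fall in +Fgf was not called (-0.61, adjusted p = 0.070).

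Etv4 and Etv5, the ETS factors, both rose in Day 12 +Fgf, while in +Wnt tissue Etv5 fell by Day 12 and Etv4 rose between Day 12 and Day 15. Etv4 was at 7.15, 8.69 and 8.02 CPM in Day 10 tissue, at 49.1, 48.5 and 49.2 in Day 12 +Fgf and at 36.0, 32.3 and 39.1 in Day 15 +Fgf. It was at 5.1, 7.1 and 9.4 CPM in Day 12 +Wnt and at 20.8, 21.0 and 18.8 in Day 15 +Wnt. The Day 12 +Wnt libraries spread around those of Day 10, while the Day 15 +Wnt libraries stood clear of both. Etv4 rose by 2.58 (SE 0.15, adjusted p = 9.8e-10) to Day 12 +Fgf. The difference between Day 12 +Wnt and Day 10 was -0.18, with a 95% confidence interval of -0.49 to 0.14, and it passed the threshold without Day 12 +Wnt replicate 3 (-0.38, adjusted p = 0.018). From Day 12 to Day 15, Etv4 rose 2.81-fold in +Wnt (log2 fold change 1.49, SE 0.15, adjusted p = 1.8e-07) and fell by 0.45 on the log2 scale in +Fgf (SE 0.15, adjusted p = 0.017), the latter missing the threshold without Day 15 +Fgf replicate 2 (-0.38, adjusted p = 0.071). With the RNA integrity number in the limma model, that fall was also not called (-0.39, adjusted p = 0.40).

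Etv5 was at 47.2, 61.8 and 46.3 CPM in Day 10 tissue, at 137, 127 and 132 in Day 12 +Fgf and at 149.9, 143 and 146 in Day 15 +Fgf. It was at 17.9, 20.9 and 16.4 CPM in Day 12 +Wnt and at 22.9, 29.0 and 32.6 in Day 15 +Wnt. No 2 groups overlapped, with the +Fgf libraries above Day 10 and the +Wnt libraries below it at both times. Etv5 rose by 1.36 (SE 0.12, adjusted p = 1.1e-07) to Day 12 +Fgf and fell by 1.47 on the log2 scale (SE 0.12, adjusted p = 3.2e-08) to Day 12 +Wnt. The difference between Day 15 and Day 12 in +Fgf was 0.14 (95% confidence interval -0.11 to 0.40) and was not called, whereas Etv5 in +Wnt rose by 0.60 (SE 0.12, adjusted p = 0.00029) between these days. Etv4 gave 15.5 ± 1.67 reads per 100 Etv5 reads in Day 10 tissue, 37.0 ± 1.09 in Day 12 +Fgf, 40.0 ± 15.4 in Day 12 +Wnt, 24.5 ± 2.18 in Day 15 +Fgf and 73.6 ± 16.8 in Day 15 +Wnt (SD, n = 3). The ratio ranged from 28.4 to 57.5 in Day 12 +Wnt and from 57.6 to 91.1 in Day 15 +Wnt, so these groups only just did not overlap.

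Day 15 was compared with Day 12 within each stimulation to ask whether the early differences lasted. In +Fgf, 6 of the 10 genes were called lower at Day 15 (Spry2, Spred1, Spred3, Il17rd, Dusp6 and Etv4), none was called higher and 4 were not called, where 29.9% of all genes were called lower and 27.2% higher. The median over the 10 genes was -0.32, against -0.02 over all genes, and with the RNA integrity number of each sample in the model only 3 of the 6 calls were made, those of Spred1, Dusp6 and Etv4 being lost (adjusted p = 0.57, 0.070 and 0.40). Their log2 fold changes were -0.12, -0.61 and -0.39 in that model, and the number of genes called over the whole table went from 7899 to 3591. In +Wnt, 7 were called higher at Day 15 (Spry1, Spry2, Spry4, Spred2, Spred3, Etv4 and Etv5) and 3 lower (Spred1, Il17rd and Dusp6), where 32.5% of all genes were called higher and 35.5% lower, and the median was 0.45 against -0.02.

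The excess over Day 10 that was present in Day 12 +Fgf was kept to very different degrees at Day 15 +Fgf. The Day 15 excess in CPM was 117% ± 4.90 of the Day 12 excess for Etv5 (SE), 111% ± 9.55 for Spry4, 115% ± 21.8 for Spred2 and 114% ± 33.3 for Spry1. It was 68.0% ± 4.87 for Etv4, 67.3% ± 7.72 for Spred1, 40.9% ± 6.84 for Spry2 and 38.4% ± 2.38 for Dusp6. It was lowest for Spred3, at 23.5% ± 8.58, and Il17rd, at 16.3% ± 5.15. These shares share their Day 10 libraries, were not adjusted for RNA integrity and were not tested. By the study's listing, every Day 15 +Fgf sample had a lower RNA integrity number than every Day 12 +Fgf sample. Integrity and time in culture thus cannot be told apart over this step. The integrity number was also higher in every Day 12 +Fgf, Day 12 +Wnt and Day 15 +Wnt sample than in every Day 10 sample. In every Day 15 +Fgf sample it was lower than in every Day 15 +Wnt sample. Integrity thus differed along with the groups in those comparisons as well. At Day 15, all 10 genes were still called higher in +Fgf than in Day 10 tissue, where 36.2% of all genes were called higher and 36.4% lower, with log2 fold changes from 0.33 for Il17rd to 2.73 for Spry4 and a median of 0.69. In Day 15 +Wnt, 6 genes were called lower than in Day 10 tissue, 3 higher (Spry1, Etv4 and Spry4, the last turning to -0.08 under quantile normalisation) and 1 was not called (Spred3), where 40.2% of all genes were called lower and 39.6% higher. Against Day 15 +Wnt, 9 genes were called higher in Day 15 +Fgf and Spry1 lower, where 38.0% of all genes were called higher and 30.6% lower, and the median log2 difference was 0.88 against 0.05 over all genes. The calls of Spry1 (-0.42, adjusted p = 0.11) and Spred3 (0.45, adjusted p = 0.058) were lost with the RNA integrity number in the limma model.

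The change from Day 12 to Day 15 itself was compared between the stimulations with the interaction term of the model. It was lower in +Fgf than in +Wnt for 7 of the 10 genes and higher for none, where 20.9% of all genes were called lower and 27.0% higher. The differences were -1.94 for Etv4 (SE 0.21, adjusted p = 1.5e-06), -1.75 for Spry2 (SE 0.13, adjusted p = 3.1e-08) and -1.11 for Spred3 (SE 0.14, adjusted p = 5.4e-06). They were -0.75 for Spry1, -0.68 for Spry4, -0.55 for Il17rd and -0.46 for Etv5, with adjusted p between 0.00084 and 0.035. With the RNA integrity number in the model the calls for Spry4 (-0.62, adjusted p = 0.16) and Etv5 (-0.25, adjusted p = 0.54) were lost, and the number of genes called over the whole table went from 6636 to 3842. Quantile normalisation also ended both calls (-0.12 for Spry4 and -0.36 for Etv5, with adjusted p of 0.61 and 0.093). For Etv5 the call was lost in 8 of the 15 fits that each left out 1 library, with adjusted p up to 0.10: those without Day 12 +Fgf replicate 1 or 3, Day 12 +Wnt replicate 1 or 3, Day 15 +Fgf replicate 2 or 3, or Day 15 +Wnt replicate 2 or 3. No difference was called for Dusp6 (-0.17, 95% confidence interval -0.51 to 0.18), Spred1 (-0.01, -0.22 to 0.19) and Spred2 (-0.24, -0.51 to 0.03). The gap between +Fgf and +Wnt at Day 15 was thus 2.53 on the log2 scale for Dusp6 (SE 0.12), beside 2.69 (SE 0.12) at Day 12, while for Etv4 it was 0.81 (SE 0.15) beside 2.76 (SE 0.15).

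**Figure D4:**
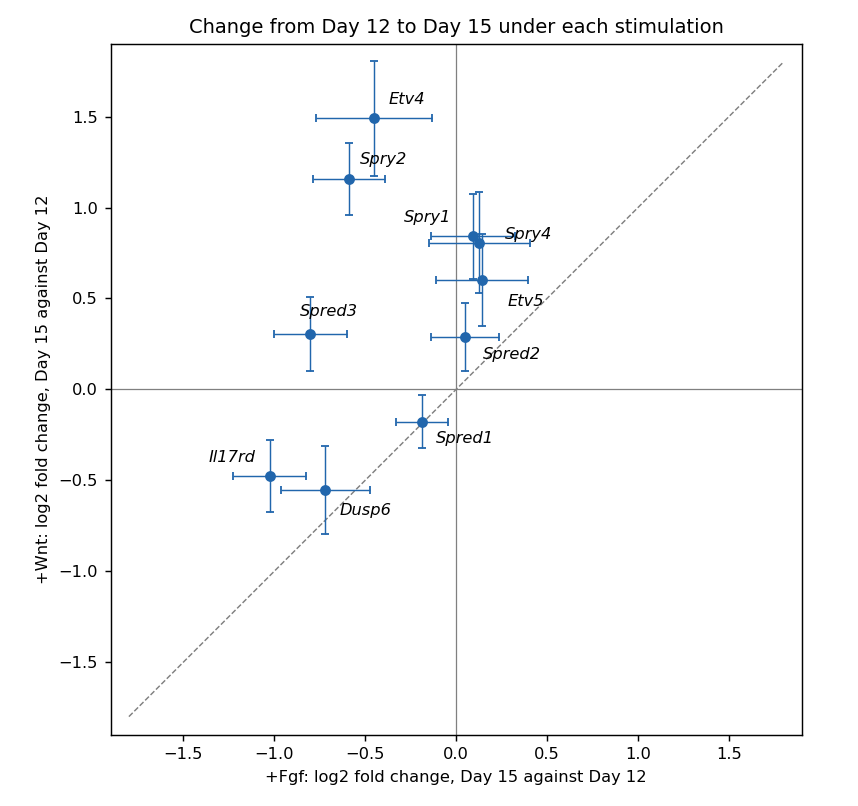
Log2 fold change from Day 12 to Day 15 in +Fgf (horizontal axis) and in +Wnt (vertical axis) for each gene, as limma estimates with 95% confidence intervals. The dashed line marks equal change in both. Spred1 and Dusp6 lie closest to the line, and Etv4 and Spry2 lie farthest above it, having fallen in +Fgf and risen in +Wnt.

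The patterns of the 10 genes over the 5 groups were compared as the root mean square difference (RMS) of their log2 group means, each centred on its own mean. Spred1 and Spred2 were the most alike (RMS 0.21), followed by Spred3 and Il17rd (0.26), and Spry1 and Dusp6 were the least alike (1.32). Among the other genes with at least 10 CPM on average, the pattern closest to Dusp6 was that of Epha2, an ephrin receptor (RMS 0.16), which averaged 20.0 CPM at Day 10, 57.3 and 36.5 at Day 12 and Day 15 of +Fgf, and 6.57 and 5.84 at the same days of +Wnt. The closest to Etv4 was Igfbp3, an IGF-binding protein (0.20). The closest to Spry1 was Igsf3 (0.07), which also had its highest mean in Day 15 +Wnt, at 47.9 ± 3.87 CPM. Further closest genes were Cnksr2 for Spry4 (0.29), Tacc1 for Spred2 (0.04), Tpm2 for Spred3 (0.12), Abca5 for Etv5 (0.18) and F2r for Il17rd (0.19). The second closest were Mgat5 for Spry1, Col4a1 for Spry2, Col23a1 for Spry4, Zfhx4 for Spred1, Dab1 for Spred2, Itpripl2 for Spred3, Etl4 for Dusp6, Pmepa1 for Etv4, Ptpru for Etv5 and Tsc22d1 for Il17rd. These are descriptions over 5 group means.

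Other ERK response and feedback genes formed a list of 26, of which 23 were tested. In Day 12 +Fgf, 12 of the 23 were called higher than in Day 10 and 3 lower, where 27.9% and 27.8% of all genes were called in these directions, and in Day 12 +Wnt, 2 were called higher and 15 lower, where the shares were 30.6% and 29.6%. Etv1, the third ETS factor of the family of Etv4 and Etv5, rose from 15.2 to 49.4 CPM in Day 12 +Fgf (log2 fold change 1.68, SE 0.12, adjusted p = 6.9e-09), and Ccnd1, which encodes cyclin D1, rose from 189 to 511 CPM (1.44, SE 0.14). Dusp9, another ERK phosphatase, went the other way, from 202 to 85.4 CPM in Day 12 +Fgf and to 39.1 CPM in Day 12 +Wnt. Myc fell from 124 CPM to 83.9 CPM in Day 12 +Fgf (log2 fold change -0.57) and to 7.56 CPM in Day 12 +Wnt (-3.99). Between the stimulations, 18 of the 23 were called higher in +Fgf and 1 lower at Day 12 (26.3% and 25.2% of all genes), and 12 higher and 6 lower at Day 15 (38.0% and 30.6%). Of the 6, Egr1, an immediate early transcription factor, was at 8.87 CPM in Day 15 +Fgf and 15.0 in Day 15 +Wnt, after 28.3 and 3.83 CPM at Day 12. From Day 12 to Day 15 in +Fgf, 8 were called higher and 12 lower (27.2% and 29.9% of all genes), among them Dusp8 (from 13.7 to 49.97 CPM) and Ets1 (from 31.0 to 6.63 CPM). In +Wnt, 10 were called higher and 6 lower (32.5% and 35.5%), and the interaction was called lower for 14 and higher for 3 (20.9% and 27.0%).

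The receptors and cascade components were a list of 24, of which 23 were found and tested. Called higher and lower were 6 and 7 in Day 12 +Fgf against Day 10, 5 and 9 in Day 12 +Wnt against Day 10, and 8 and 5 in Day 12 +Fgf against Day 12 +Wnt, with medians of -0.06, -0.08 and 0.00. Over all genes, 27.9% and 27.8%, 30.6% and 29.6%, and 26.3% and 25.2% were called in these comparisons, so the share of this list called higher or lower in Day 12 +Fgf against Day 10 was near that of all genes. Fgfr2, an Fgf receptor, averaged 139.6 CPM in Day 10 tissue and fell to 58.2 CPM in Day 12 +Fgf (log2 fold change -1.26, SE 0.12, adjusted p = 2.4e-07) and to 21.2 CPM in Day 15 +Fgf (-1.47, SE 0.12, adjusted p = 3.0e-08, against Day 12). It averaged 144.5 and 136.8 CPM in Day 12 and Day 15 +Wnt. Fgfr1 fell from 162 to 128 CPM between Day 12 and Day 15 +Fgf, and Map2k1, which encodes the kinase MEK1, rose from 64.5 CPM at Day 10 to 89.4 CPM in Day 12 +Fgf and 89.3 in Day 12 +Wnt. At Day 15, 8 of the 23 were called higher and 6 lower in +Fgf than in +Wnt, where 38.0% and 30.6% of all genes were.

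Because serum is part of the +Fgf medium, a list of 16 serum response genes was measured beside the 10 genes. Of the 14 tested, 12 were called higher and 1 lower in Day 12 +Fgf than in Day 10 (27.9% and 27.8% of all genes). All 14 were called lower in Day 12 +Wnt than in Day 10 (29.6% of all genes) and lower in Day 15 +Fgf than in Day 12 +Fgf (29.9%). Tagln, a smooth muscle gene bound by serum response factor, averaged 21.2 CPM in Day 10 tissue, 316 in Day 12 +Fgf and 38.8 in Day 15 +Fgf. The summed level of the list ranged from 864 to 879 CPM in Day 10 tissue, from 1709 to 2209 in Day 12 +Fgf, from 484 to 534 in Day 15 +Fgf and from 357 to 425 in the +Wnt libraries. At Day 12, most of the list was called in the same direction as most of the 10 genes. In Day 15 +Fgf the summed level lay below its Day 10 range, but the genes of the list were divided. Acta2 (from 14.8 to 56.2 CPM) and Tagln were called higher than in Day 10, 8 were called lower and 4 were not called. Over all genes, 36.2% were called higher and 36.4% lower. The part of serum in the levels of the 10 genes was not tested.

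Markers of other cell types also differed between the groups. The summed level of 8 retinal neuron markers ranged from 74.9 to 135 CPM in Day 10 tissue, from 268 to 278 in Day 12 +Fgf, from 442 to 591 in Day 12 +Wnt, from 1652 to 1871 in Day 15 +Fgf and from 862 to 1029 in Day 15 +Wnt. Of the +Wnt sums, Tubb3 gave 312 to 411 CPM at Day 12 and 544 to 628 CPM at Day 15. Stmn2 gave 60.8 to 97.4 and 215 to 266 CPM at these days, and Elavl4 gave 48.0 to 60.1 and 81.2 to 110 CPM. In Day 15 +Wnt against Day 10, 5 of the 8 were called higher and 2 lower (39.6% and 40.2% of all genes). Atoh7, Pou4f2 and Isl1 were at most 0.53, 2.03 and 2.18 CPM in any +Wnt library. At Day 12, 3 of the 8 were called higher in +Fgf than in +Wnt and 4 lower (26.3% and 25.2% of all genes). At Day 15, 7 were called higher in +Fgf and none lower (38.0% and 30.6%). All 8 were called higher in Day 15 +Fgf than in Day 12 +Fgf (27.2% of all genes), and Pou4f2, which defines retinal ganglion cells, went from 12.6 to 82.1 CPM. Markers of mesenchyme and neural crest (8 listed, 6 tested) summed to between 352 and 403 CPM in Day 15 +Wnt and to between 61.5 and 188 CPM in all other libraries. All 6 were called higher in Day 15 +Wnt than in Day 10 (39.6% of all genes). Col1a1, which defines mesenchyme, averaged 61.5 CPM in Day 15 +Wnt and 3.06 in Day 12 +Wnt, a step over which 7 of the 10 genes were called higher and 3 lower (32.5% and 35.5% of all genes). Markers of blood, vessel and pluripotent cells summed to between 27.0 and 49.7 CPM in Day 15 +Wnt and to at most 29.8 CPM elsewhere. Of the 5 tested, 1 was called higher and none lower in Day 15 +Wnt than in Day 12 +Wnt (32.5% and 35.5% of all genes). That 1 was Csf1r, a receptor of macrophages and related cells, at 19.4, 19.2 and 21.8 CPM in Day 15 +Wnt and at most 1.76 CPM in all other libraries, while Ptprc, a marker of all white blood cells that was too low to test, was at 0 in all Day 10, Day 12 +Wnt and Day 15 +Wnt libraries. Both were named after their values were seen. Mitf, a defining gene of pigmented epithelium, averaged 183 CPM in Day 15 +Wnt and 18.6 in Day 15 +Fgf. The part of these cell types in the levels of the 10 genes was not tested.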

How the data were processed

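RNA-Seq was run on 15 samples of SFEBq optic tissue, with 3 replicates in each of 5 groups that were assigned from the sample titles. The submitters' processing notes list bcl2fastq 1.8.4, FastQC 0.10.1, TopHat2 2.0.8b, Cuffdiff from Cufflinks 2.1.1, edgeR 3.2.4 and the mm10 build. The study's methods state a stranded TruSeq library kit, and the strand setting of the counting is not given in the sources used here. The authors deposited a signal per gene, which is a read count scaled to the size of its library (CPM) and by edgeR's normalisation factors (TMM), so columns sum to between 936418 and 1075448. Each value was a whole multiple of the worth of 1 read, and 100.0% of 241327 non-zero values came out as whole reads within 0.01 read. The recovered totals were 12556998 to 16175450 reads per library, and a value resting on few reads carries a larger counting error.

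The deposited values were tested with limma 3.58.1 (R 4.3.3) as log2(value + 0.3), so that fold changes of low genes are understated. The model held the 5 group means over all 15 samples, with a trended prior on the variance. Entries were kept if they reached 1 CPM, relative to the column total, in 3 samples (13845 of 23244), tests were two-sided, p-values were adjusted by Benjamini-Hochberg over all entries tested within each of 9 comparisons, and a gene was called at an adjusted p below 0.05. Since nothing in the labels ties replicates to separate differentiations, p-values measure only the spread between these samples. The 10 genes and the other lists were chosen with earlier results of these data known. From the other pathway lists, genes were named from among the 3 largest changes called in each direction and comparison, where the group with the higher mean reached 10 CPM. Not all genes that met this rule are named. Defining markers were named for the cell types, and the genes with the closest patterns were named, a few of which are not reported here. The alternatives were pseudocounts of 0.05 and 1, no filter and a filter of 10 CPM, median-of-ratios scaling, quantile normalisation, the RNA integrity number listed by the study as a covariate, a replicate block, a fit to the compared groups only, edgeR 4.0.16 on the recovered reads, and each library left out in turn. The code of the fits was run on simulated data in which a small part of the genes changed, in 1 group. Far more genes were called in the data here, so that run does not test the calls reported. Exon lengths and positions came from the GENCODE vM21 annotation of GRCm38, and promoters from RefSeq.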

Additional observations from a re-analysis of the deposited data

Results flagged for a closer look

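For 7 of the 10 genes, the change from Day 12 to Day 15 differed between the +Fgf and +Wnt tissues by the interaction test in limma. All 7 were called lower, where 20.9% of all genes were called lower and 27.0% higher. The log2 difference, +Fgf minus +Wnt, was -1.94 for Etv4, -1.75 for Spry2, -1.11 for Spred3, -0.75 for Spry1, -0.68 for Spry4, -0.55 for Il17rd and -0.46 for Etv5. The values for Spry4 and Etv5 are the least secure of these, since the difference was -0.12 for Spry4 and -0.36 for Etv5 after quantile normalisation, with adjusted p of 0.61 and 0.093, and -0.62 and -0.25 with the RNA integrity number as a covariate, with adjusted p of 0.16 and 0.54.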

How the results depend on the processing

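Direction and call were the same as reported for 90 of 90 values of the 10 genes (10 genes in 9 comparisons) with a pseudocount of 0.05, a pseudocount of 1, a filter of 10 CPM, and a replicate block, and for 89 with median-of-ratios scaling, no filter, the compared groups only, or edgeR. The number of the 10 genes called in Day 15 +Fgf against Day 12 +Fgf was 6 as reported and 3 with the RNA integrity covariate, while the number called over all genes went from 7899 to 3591. Of the calls lost, Dusp6 (-0.61) and Etv4 (-0.39) kept most of their reported fold changes of -0.72 and -0.45. The covariate also lost 8 single calls in other comparisons: Spred2 in Day 12 +Fgf against Day 10 (0.27, adjusted p = 0.11), Spry1 (-0.42, adjusted p = 0.11) and Spred3 (0.45, adjusted p = 0.058) in Day 15 +Fgf against +Wnt, Il17rd in Day 15 +Fgf (0.25, adjusted p = 0.063) and Day 15 +Wnt (-0.26, adjusted p = 0.070) against Day 10, Spry2 in Day 15 +Wnt against Day 10 (-0.25, adjusted p = 0.089), and the interactions of Spry4 (-0.62, adjusted p = 0.16) and Etv5 (-0.25, adjusted p = 0.54). The cause was not tested. Over the alternatives and left-out libraries the number called stayed at 9 or 10 in Day 12 +Fgf against Day 10 and in Day 12 +Fgf against Day 12 +Wnt, and within 1.5 times the reported number in all comparisons except the one named.

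Quantile normalisation turned Spry4 in Day 15 +Wnt against Day 10 to -0.0768, and the uncalled interaction values to 0.00628 for Spred1 and 0.0826 for Dusp6, and it reduced Spry4 in Day 15 +Wnt against Day 12 +Wnt to 0.13 (adjusted p = 0.39). With the RNA integrity covariate the interaction was 0.0572 for Spred1. Leaving out 1 library turned the sign of uncalled values only. The ranges were -0.13 to 0.0523 for Spry4 and -0.38 to 0.0415 for Etv4 in Day 12 +Wnt against Day 10, -0.0760 to 0.19 for Spry1 and -0.00722 to 0.0899 for Spred2 in Day 15 +Fgf against Day 12 +Fgf, and -0.0718 to 0.0397 for the interaction of Spred1. In these leave-one-out fits, 20 of 1350 values lost a call and 1 gained one.

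Deviations of same-numbered samples correlated at -0.25 to 0.24 over 30 pairs (median -0.01), with 7 pairs over 0.1. Those of differently numbered samples correlated at -0.33 to 0.29 over 60 pairs (median -0.01), with 14 pairs over 0.1. These similar ranges do not show that same-numbered samples came from separate cultures. The replicate block changed none of the 90 calls, with 10 of the 10 genes called in Day 12 +Fgf against Day 10 under it. Depth limited Spry4 most, with 30 to 40 reads in each Day 10 library.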
